A study of Mus musculus with 24 samples.

Results

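The 9 genes described here encode components, regulators and receptors of complement: *C1qa*, *C1qb*, *C1qc*, *C4b*, *C3*, *Cfb*, *Serping1*, *C3ar1* and *C5ar1*. They were taken as a list of names, drawn up with earlier results of these data known, and are 9 of the 24411 genes in the expression tables. A wider list of 54 complement genes holds them and 45 others. Complement is a cascade of secreted proteins that marks targets for removal. In its classical route the C1q complex, built from A, B and C chains, binds a target. Of its partner proteases C1r and C1s, it is C1s that cleaves C4 and C2. C3 is cleaved in turn, a step that the alternative route amplifies through factor B. In the brain, microglia are the main source of C1q, *C3* is widely used to mark reactive astrocytes, and both proteins are known for tagging synapses that microglia remove.

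Glia from postnatal mice, either WT or carrying the *SOD1* G93A transgene, were grown in serum-free medium and profiled by bulk RNA-seq of polyA-enriched RNA. The transgene encodes a mutant human superoxide dismutase under the human promoter, is carried by all cells of the animal and is used as a model of amyotrophic lateral sclerosis. Forebrain astrocytes were immunopanned, with dishes that held back cells binding CD45, BSL I or O4 before astrocytes were kept on HepaCAM. Microglia came from whole brains of mice some days older and were collected with Cd11b beads. Quiescent astrocytes of WT and *SOD1* G93A mice and quiescent WT microglia received PBS. Activated astrocytes of both genotypes received a mixture of 3 ng/mL of IL-1α, 30 ng/mL of TNFα and 400 ng/mL of C1q, and activated microglia of both genotypes received the bacterial product LPS at 50 ng/mL. C1q protein was thus one of the added factors, whereas all values below are mRNA. Each of these 7 conditions had 3 libraries, so 21 of the 24 samples were used, and quiescent microglia of *SOD1* G93A mice (3 samples) are not analysed here. A library held between 2016139 and 11570122 reads on genes, and levels are given as RPM, reads per 1000000 of these. RPM places microglia lower against astrocytes than the size factors behind the tests do, by a log2 shift of -0.58 for every gene in quiescent WT cells, and LPS microglia lower against quiescent microglia by -0.22, so folds taken from RPM differ from the tested ones by these amounts. The sample labels do not say whether libraries of a condition came from separate cultures, so p-values measure only the spread between these samples, which may be technical.

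The genes other than the C1q chains lie on chromosomes 2, 6, 7 and 17 (GRCm38, GENCODE annotation): *C4b* at chr17:34728380-34743882, *Cfb* at chr17:34856374-34862518, *C3* at chr17:57203970-57228136, *Serping1* at chr2:84765387-84775444, *C3ar1* at chr6:122847138-122856161 and *C5ar1* at chr7:16246743-16259540. All 9 members are protein-coding genes on the minus strand.

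Some libraries stood apart from others of their condition. Over the 21 pairs of replicates the chi-square per degree of freedom of the gene counts ran from 1.50 to 21.7, where 1 would be counting noise alone. Replicate 3 of *SOD1* G93A LPS microglia differed most, with 16.8 against replicate 1 and 21.7 against replicate 2, while replicates 1 and 2 were at 2.41. Replicate 1 of WT LPS microglia was at 15.0 against replicate 2 and 13.8 against replicate 3, which were at 1.65 to each other. Among quiescent astrocytes the highest values were 9.45 in WT and 10.4 in *SOD1* G93A cells.

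The labelled cell types were checked against fixed marker lists, summed in RPM. In quiescent WT microglia the 14 microglial markers summed to 11334, 11789 and 11175 RPM, led by *Csf1r*, a growth factor receptor. In WT LPS microglia they summed to 3418, 3307 and 3344, and in *SOD1* G93A LPS microglia to 3746, 3747 and 5107, the highest being replicate 3. In astrocytes the 12 astrocyte markers summed to between 4967 and 7258 RPM, led by the glutamate transporter *Slc1a3*, and in microglia to between 334 and 922, led by the glutamine synthetase gene *Glul*. At least 13 of the 14 microglial markers had reads in every astrocyte library, and no defining marker of microglia (*Cx3cr1*, *P2ry12*, *Csf1r*) was at 0 there. In bulk RNA, fewer cells of a type and less RNA per cell cannot be told apart.

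The genes of the C1q chains lie side by side on the minus strand of chromosome 4 (GRCm38), in the order *C1qb*, *C1qc*, *C1qa*, within 18675 bases, with 3616 bases between *C1qb* and *C1qc* and 2851 between *C1qc* and *C1qa*. In quiescent WT microglia *C1qa* had 1605, 1706 and 1585 RPM in the 3 libraries. *C1qb* had 1241, 1266 and 1201, and *C1qc* had 973, 1108 and 966. All 9 of these values were above every value of the same gene in LPS microglia of either genotype. Per kilobase of exon, *C1qa* (1569 ± 62.2 RPM per kb, SD, n = 3) was ahead of *C1qb* (1136 ± 30.3) and *C1qc* (526 ± 41.3), and these were the 3 highest of the 9 genes in quiescent microglia.

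With LPS the 3 chains did not move to the same extent. *C1qa* had 586, 453 and 435 RPM in WT LPS microglia, *C1qb* had 803, 618 and 574, and *C1qc* had 392, 330 and 308. Here *C1qb* was the highest of the 3 in each library, where *C1qa* had been highest in quiescent cells. Genes were tested with limma on log2(value + 1) of normalized read counts, which understates the change of genes with few reads, and called at an adjusted p under 0.001 and more than 2-fold. *C1qa* fell by 1.53 on the log2 scale (SE 0.11, limma adjusted p = 6.7e-07) and *C1qc* fell by 1.35 (SE 0.10, limma adjusted p = 1.3e-06), lower in 3 of 3 LPS libraries each. *C1qb* was lower in 3 of 3 as well, with a log2 fold change of -0.69 (SE 0.11, limma adjusted p = 3.7e-04), which is under the 2-fold limit, so it was not called. Without replicate 1 of the LPS cells the values were -1.64 for *C1qa*, -0.82 for *C1qb* and -1.43 for *C1qc*, and each gene stayed on the same side of the limits. The summed microglial markers were lower in the same libraries, as given above, and their part in these values was not tested.

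The ratio of the chains within a library does not depend on the scaling of libraries. The ratio of *C1qa* to *C1qb* reads was 1.32 on average in quiescent WT microglia (1.29 to 1.35) and 0.740 in WT LPS microglia (0.730 to 0.758). The 2 sets of libraries did not overlap, and the exact permutation test gave p = 0.1 (two-sided, n = 3 and 3), the smallest p that the 20 arrangements of 3 against 3 libraries allow. The ratio of *C1qb* to *C1qc* went the other way, 1.22 (1.14 to 1.28) in quiescent and 1.93 (1.86 to 2.05) in LPS microglia, also without overlap (exact permutation p = 0.1). *C1qa* to *C1qc* moved least, from a mean of 1.61 to 1.43 (exact permutation p = 0.1). *SOD1* G93A LPS microglia had *C1qa* to *C1qb* ratios of 0.755 to 0.887, a mean of 0.806 against 0.740 in WT LPS cells (exact permutation p = 0.2). The highest, 0.887, was in replicate 3, and the mean without it was 0.766. Counted by libraries, *C1qa* reads exceeded *C1qb* reads in 3 of 3 quiescent microglia libraries, 0 of 6 LPS microglia libraries and 11 of 12 astrocyte libraries. In the exception, replicate 3 of activated *SOD1* G93A astrocytes, *C1qa* had 38 reads and *C1qb* 43. These ratios were 16 comparisons computed after the chain values had been seen, and no exact permutation test of 3 against 3 libraries can pass 0.05.

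**Figure D1:**
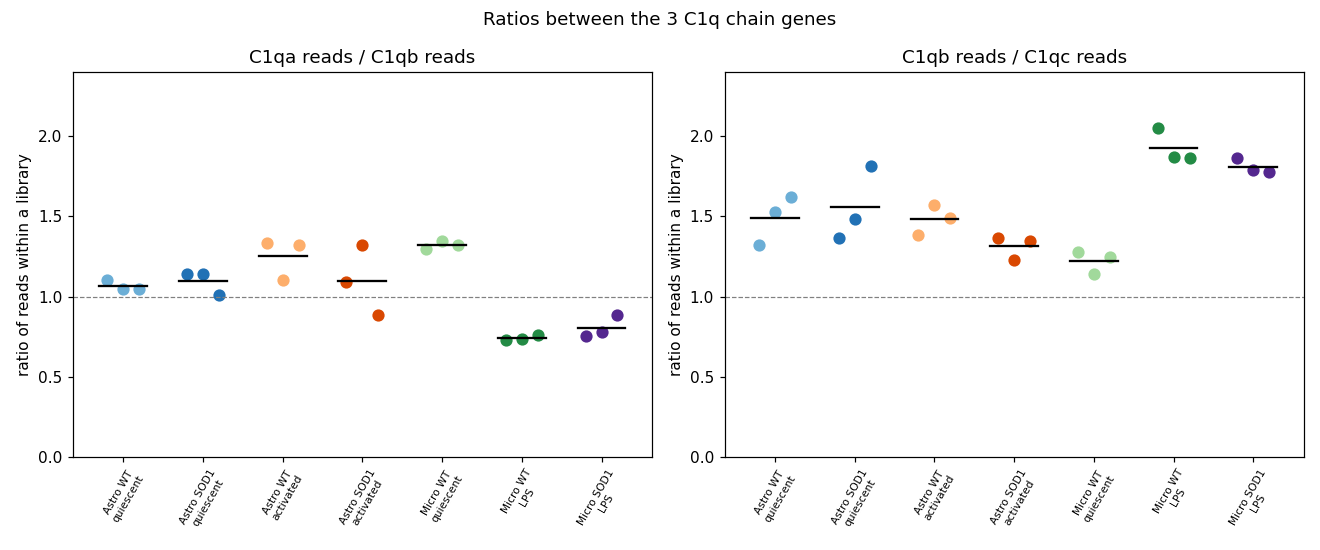
Reads of *C1qa* divided by reads of *C1qb* (left) and of *C1qb* divided by *C1qc* (right) in each of the 21 libraries, with lines at the condition means and a dashed line at a ratio of 1. LPS microglia of both genotypes lie under 1 on the left, with means of 0.740 and 0.806, and quiescent microglia above it with a mean of 1.32.

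*SOD1* G93A LPS microglia had C1q values inside or next to the range of their WT counterparts. *C1qa* had 484, 493 and 496 RPM, *C1qb* 641, 634 and 559, and *C1qc* 344, 354 and 315. The log2 fold changes of *SOD1* G93A against WT were 0.02 for *C1qa*, -0.10 for *C1qb* and -0.01 for *C1qc*, and none was called. Without replicate 3 of the *SOD1* G93A cells they were 0.02, -0.03 and 0.05.

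In astrocytes the C1q transcripts were present at far lower levels. *C1qa* had 15.9, 24.2 and 33.6 RPM in quiescent WT astrocytes and 40.0, 42.2 and 27.3 in quiescent *SOD1* G93A astrocytes. After IL-1α, TNFα and C1q it had 23.0, 38.4 and 22.3 in WT and 26.3, 19.9 and 17.8 in *SOD1* G93A cells. The 4 conditions overlapped for the most part. In *SOD1* G93A cells the lowest quiescent value (27.3) was just above the highest activated one (26.3), and on the normalized scale of the test the 2 states overlapped. *C1qb* ranged from 14.4 to 37.1 and *C1qc* from 10.9 to 25.7 over the 12 astrocyte libraries. Activation gave log2 fold changes in WT astrocytes of 0.22 for *C1qa*, 0.00 for *C1qb* and 0.00 for *C1qc*, and in *SOD1* G93A astrocytes of -0.68 (limma adjusted p = 0.0064), -0.67 (limma adjusted p = 0.0065) and -0.43 (limma adjusted p = 0.115). None of them was called, and the genotype difference of the response was not called either, at -0.90 for *C1qa* (SE 0.37, limma adjusted p = 0.523).

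Quiescent WT astrocytes held between 1.50% and 1.88% of the quiescent microglial level of the 3 C1q genes, *C3ar1* and *C5ar1*. The microglial markers *Cx3cr1* (1.92%), *Csf1r* (1.88%), *Cd68* (1.44%), *Trem2* (1.41%), *Tyrobp* (1.46%) and *Tmem119* (1.48%) stood at like shares. In quiescent *SOD1* G93A astrocytes the 5 complement genes were at 1.85% to 2.67% and these 6 markers at 2.16% to 2.95%. Some other microglial markers were at higher shares in WT astrocytes, among them *P2ry12* at 5.42% and *Sall1* at 149%. With size factors over all 21 libraries in place of RPM, a scaling added after seeing the data, the 5 complement genes were at 1.04% to 1.31% in WT and 1.26% to 1.82% in *SOD1* G93A astrocytes, *Csf1r* at 1.31% and 1.86%, and *Sall1* at 103% and 95.7%. The summed C1q level is given beside the sum of the 14 microglial markers in each astrocyte library. It was 41.2, 62.4 and 85.4 RPM in quiescent WT astrocytes, where the markers summed to 350, 426 and 482, and *Sall1* was the most abundant. Without *Sall1* the markers summed to 172, 252 and 292 in these libraries. They then summed to 276 to 390 in quiescent *SOD1* G93A, 181 to 336 in activated WT and 179 to 245 in activated *SOD1* G93A astrocytes. In quiescent *SOD1* G93A astrocytes C1q summed to 101, 104 and 69.3 beside marker sums of 560, 549 and 442. In activated WT astrocytes it was 52.7, 95.4 and 50.4 beside 374, 497 and 357, and in activated *SOD1* G93A astrocytes 68.2, 47.1 and 52.9 beside 418, 317 and 337. Divided by *Csf1r* in the same library, summed C1q was 1.20 to 1.43 in the 12 astrocyte libraries and 1.47 to 1.56 in quiescent microglia, but 1.67 to 2.42 in WT and 1.07 to 1.81 in *SOD1* G93A LPS microglia. Divided by *Cd68* it was 2.18 to 3.14 in astrocytes and 2.31 to 2.57 in quiescent microglia, which overlapped, and lower after LPS, at 1.74 to 2.26 in WT and 1.58 to 2.04 in *SOD1* G93A microglia. The place of astrocytes and the direction with LPS thus depend on the marker used. The part of microglia in the astrocyte values of these 5 genes was not tested.

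*C4b* encodes C4, the protein that C1s cleaves, and was an astrocyte transcript in these cultures. Quiescent WT astrocytes had 15.4, 24.7 and 42.9 RPM and quiescent *SOD1* G93A astrocytes 9.45, 13.2 and 12.1, so the 2 genotypes did not overlap. Activated WT astrocytes had 57.8, 57.6 and 49.0, and activated *SOD1* G93A astrocytes 68.0, 56.5 and 50.1. Every activated library was above every quiescent one, and the activated genotypes overlapped. Microglia had almost no *C4b*, with 10, 0 and 2 reads in the quiescent libraries, 7, 4 and 5 after LPS in WT and 6, 14 and 2 in *SOD1* G93A cells. Its log2 fold change in quiescent WT microglia against astrocytes was -5.26 (SE 0.64, limma adjusted p = 2.1e-05), lower in 3 of 3 libraries. It was -5.93 without replicate 1 of the microglia and -4.56 without replicate 2, called both times.

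Activation raised *C4b* in *SOD1* G93A astrocytes 5.22-fold (log2 fold change 2.38, SE 0.15, limma adjusted p = 3.7e-09). In WT astrocytes the value was 1.13 (SE 0.29, limma adjusted p = 0.0105), not called, and replicate 3 of the quiescent cells decided that. Without this library the value was 1.52 with a limma adjusted p of 3.0e-06, which is called. Without replicate 1 of the quiescent cells it was 0.75, not called. The difference between the genotypes in this response was 1.27 (SE 0.36, limma adjusted p = 0.262), and the difference between quiescent genotypes was -1.15 (SE 0.32, limma adjusted p = 0.368), which ran from -1.52 without replicate 1 to -0.76 without replicate 3 of the quiescent WT cells. Neither was called, so a genotype difference of *C4b* was not shown. *C4a*, a near-identical neighbour on chromosome 17, had at most 6 reads in any library, and how the counting divided reads between the copies is uncertain.

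*C3*, the protein on which all complement routes meet, was low in every quiescent condition. Quiescent WT astrocytes had 3.97, 5.50 and 5.94 RPM, quiescent *SOD1* G93A astrocytes 8.08, 8.83 and 5.47, and quiescent WT microglia 11.0, 6.27 and 12.7. Activated WT astrocytes had 456, 366 and 407 and activated *SOD1* G93A astrocytes 339, 338 and 315. LPS microglia had 195, 230 and 223 in WT and 221, 217 and 262 in *SOD1* G93A cells, so in RPM they lay between. Their place against activated astrocytes depends on the scaling. With size factors over all 21 libraries the mean normalized count of *C3* was 1731 (1535 to 1921) in activated WT astrocytes, 1641 (1570 to 1765) in *SOD1* G93A LPS microglia, 1528 (1357 to 1647) in WT LPS microglia and 1429 (1376 to 1458) in activated *SOD1* G93A astrocytes. LPS microglia of both genotypes then overlapped with activated WT astrocytes, and their means were above that of activated *SOD1* G93A astrocytes. Under both scalings every activated library of these conditions was above every quiescent one. Quiescent microglia overlapped with quiescent *SOD1* G93A astrocytes in RPM, but not with size factors (38.8 to 77.2 against 22.04 to 36.2).

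*C3* rose with activation in WT astrocytes by 6.30 on the log2 scale (SE 0.16, limma adjusted p = 1.0e-09), in *SOD1* G93A astrocytes by 5.53 (SE 0.15, limma adjusted p = 1.9e-13) and in WT microglia with LPS by 4.68 (SE 0.21, limma adjusted p = 2.3e-08), in 3 of 3 libraries each time. In activated cells the *SOD1* G93A astrocytes were lower in 3 of 3 libraries, with a log2 fold change of -0.26 (SE 0.07, limma adjusted p = 0.0274), which was not called. The genotype difference in the size of the response was -0.75 (SE 0.24, limma adjusted p = 0.357) and was not called. Quiescent microglia were above quiescent astrocytes by 1.46 (SE 0.30, limma adjusted p = 0.0011), not called, although DESeq2 (adjusted p = 7.1e-05) and edgeR (adjusted p = 4.7e-05) called it. So did limma with a pseudocount of 5 (adjusted p = 4.9e-04), with at least 10 in every library (5.1e-04), with quantile normalization (2.31, adjusted p = 7.3e-05) and without replicate 2 of the microglia (1.74, adjusted p = 3.2e-04).

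*Cfb* encodes factor B, the protease of the alternative route, and was an LPS microglia transcript. WT LPS microglia had 170, 131 and 129 RPM and *SOD1* G93A LPS microglia 142, 121 and 84.8, the lowest being replicate 3. Quiescent WT microglia had 9, 2 and 12 reads. Astrocytes had 2, 5 and 8 reads in quiescent WT cells, 13, 12 and 3 in quiescent *SOD1* G93A cells, 8, 12 and 12 in activated WT cells and 9, 10 and 4 in activated *SOD1* G93A cells. These astrocyte counts are too few to enter the tests of astrocytes alone. LPS raised *Cfb* in WT microglia by 7.03 on the log2 scale (SE 0.24, limma adjusted p = 3.1e-09), a 131-fold change in 3 of 3 libraries. *SOD1* G93A against WT LPS microglia gave -0.32 (SE 0.20, limma adjusted p = 0.611), and -0.09 without replicate 3, not called either way. *Cfb* and *C2* lie on the same strand of chromosome 17 with 85 bases between them, so reads that run from one into the other could be counted to either.

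*Serping1* encodes C1 inhibitor, which blocks C1r and C1s. Quiescent WT astrocytes had 0, 2 and 12 reads and quiescent *SOD1* G93A astrocytes 5, 7 and 4. Activated WT astrocytes had 46, 55 and 65 reads (9.11, 8.13 and 11.3 RPM) and activated *SOD1* G93A astrocytes 37, 48 and 16 (9.94, 12.2 and 7.49 RPM). In RPM, all 6 activated libraries were above all 6 quiescent ones. In microglia it had 0, 0 and 4 reads in quiescent cells, 12, 13 and 6 in WT LPS cells and 11, 21 and 0 in *SOD1* G93A LPS cells, the 0 in replicate 3.

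*Serping1* rose by 3.97 (SE 0.62, limma adjusted p = 4.0e-04) in WT astrocytes and by 3.26 (SE 0.36, limma adjusted p = 1.9e-06) in *SOD1* G93A astrocytes on the log2 scale. The WT call is sensitive to the fit. It was lost with a pseudocount of 0.5 (adjusted p = 0.0011), with limma without a trend (0.0039), without replicate 2 of the quiescent cells (0.0023) and without replicate 1, 2 or 3 of the activated cells (0.0038, 0.0020 and 0.0054), while the log2 fold change of these fits stayed between 3.83 and 4.40. It was 3.18 without replicate 1 of the quiescent cells and 4.63 without replicate 3, and these fits kept the call. In LPS microglia it was under the limit on mean reads, and limma without that limit gave 2.84 with an adjusted p of 0.0020, not called.

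The receptors for the small fragments of C3 and C5, *C3ar1* and *C5ar1*, were both high in microglia. *C3ar1* had 1033, 1153 and 1054 RPM in quiescent WT microglia, 1339, 1519 and 1452 in WT LPS microglia and 1558, 1541 and 1212 in *SOD1* G93A LPS microglia. *C5ar1* had 641, 696 and 642, then 340, 351 and 381, then 366, 357 and 445 in the same order. The LPS libraries were thus all above the quiescent ones for *C3ar1* and all below for *C5ar1*, in both genotypes. In WT cells the log2 fold change was 0.63 for *C3ar1* (SE 0.09, limma adjusted p = 2.2e-04) and -0.67 for *C5ar1* (SE 0.09, limma adjusted p = 7.0e-05), each in 3 of 3 libraries and each under the 2-fold limit, so neither was called. The ratio of *C3ar1* to *C5ar1* reads was 1.64 (1.61 to 1.66) in quiescent and 4.02 (3.81 to 4.32) in WT LPS microglia, without overlap (exact permutation p = 0.1). In *SOD1* G93A LPS microglia it was 4.26, 4.32 and 2.72, which overlapped with WT. The mean was 3.77, and 4.29 without replicate 3, the low one. The log2 fold change of *SOD1* G93A against WT LPS microglia was 0.00 for *C3ar1* and 0.12 for *C5ar1*, and 0.13 and 0.04 without replicate 3 of the *SOD1* G93A cells, with no call.

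In astrocytes *C3ar1* ranged from 11.2 to 32.2 and *C5ar1* from 4.95 to 14.3 RPM over the 12 libraries. *C3ar1* had 32.2, 32.0 and 21.0 in quiescent and 18.0, 11.2 and 15.0 in activated *SOD1* G93A astrocytes, which did not overlap, with a log2 fold change of -0.86 (SE 0.20, limma adjusted p = 0.0028). It was not called, but without replicate 3 of the quiescent cells it was (-1.07, limma adjusted p = 2.3e-05). WT astrocytes gave 0.08 for the same change and the difference between genotypes, -0.93 (limma adjusted p = 0.580), was not called. The microglial marker sums given above moved the same way, and their part in it was not tested.

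**Figure D2:**
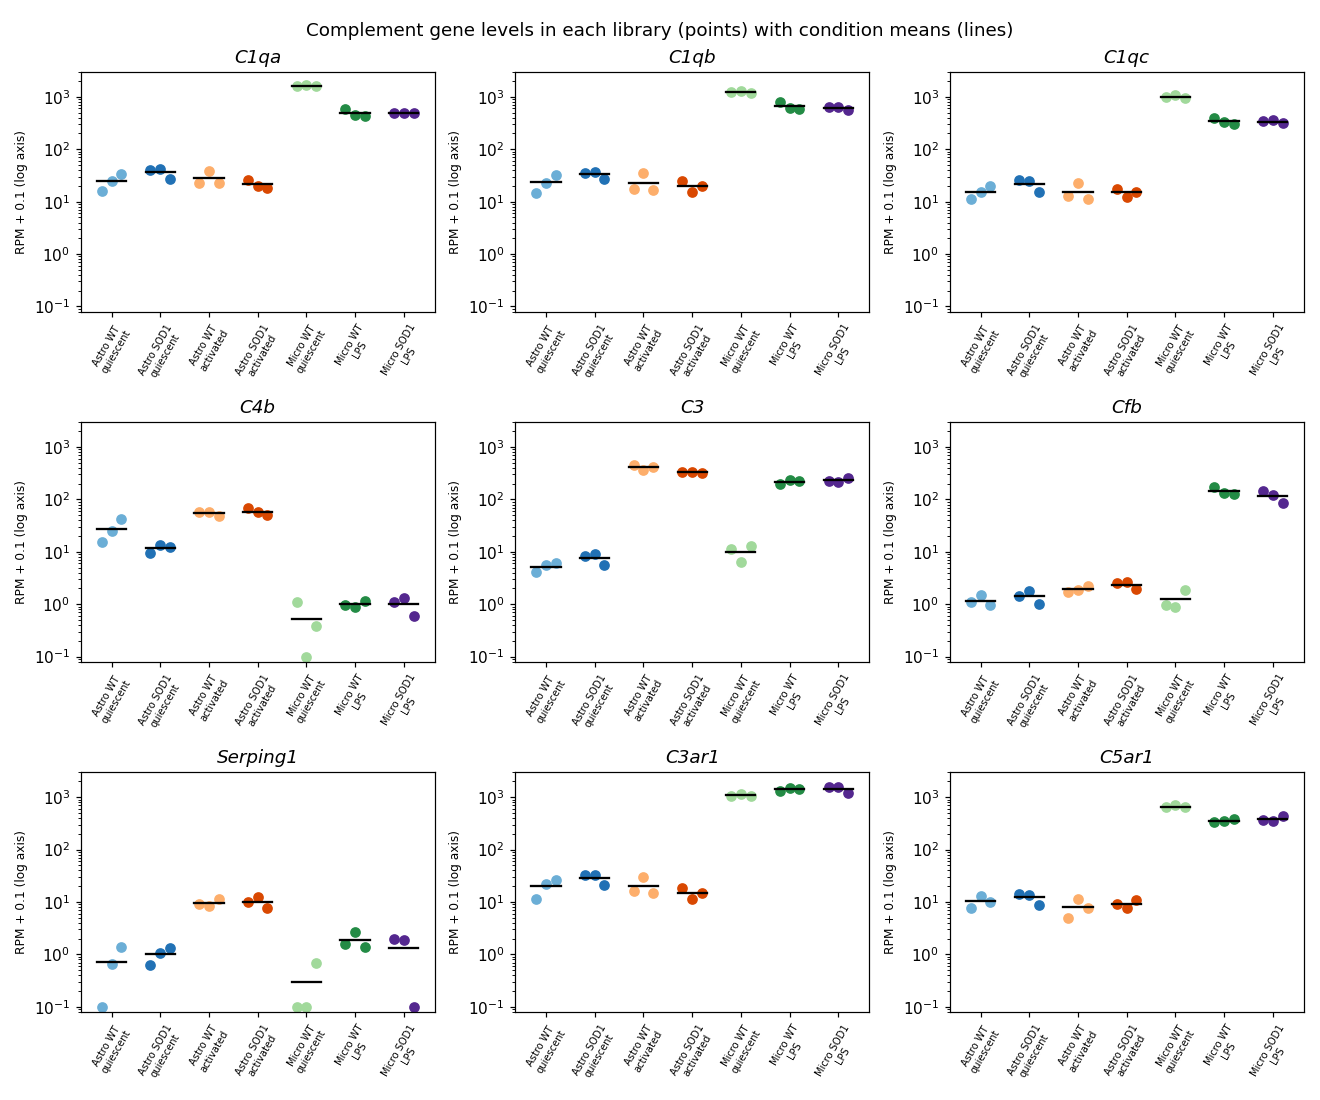
Levels of the 9 genes in the 21 libraries (points) of the 7 conditions on a log axis of RPM plus 0.1, with lines at the condition means. *C1qa*, *C1qb*, *C1qc*, *C3ar1* and *C5ar1* are high in the 9 microglia libraries, *C4b* and *Serping1* are highest in activated astrocytes, *C3* is high in all activated cells and *Cfb* in LPS microglia.

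The order of the 9 genes within a condition was compared per kilobase of exon. In quiescent microglia *C5ar1* (257 ± 12.1 RPM per kb) and *C3ar1* (251 ± 14.9) followed the C1q chains, with *C5ar1* ahead of *C3ar1* in 3 of 3 libraries by less than the spread between libraries, and *C3* (1.94), *Cfb* (0.401), *Serping1* (0.0826) and *C4b* (0.0745) came last. In WT LPS microglia the order was *C1qb* (611 ± 112), *C1qa* (473 ± 79.3), *C3ar1* (334 ± 21.1), *C1qc* (178 ± 22.5), *C5ar1* (139 ± 8.32), *Cfb* (50.7 ± 8.27) and *C3* (42.0 ± 3.62). *Cfb* was ahead of *C3* in 3 of 3 libraries there. In *SOD1* G93A LPS microglia *C3* had the higher mean (45.3 against 41.0), but *Cfb* was ahead in 2 of 3 libraries, all but replicate 3. In activated WT astrocytes *C3* led (79.7 ± 8.79), followed by *C1qa* (26.8 ± 8.77), *C1qb* (21.1 ± 9.46) and *C4b* (9.63 ± 0.881). Activated *SOD1* G93A astrocytes had the same first 4 genes, with *C3* at 64.3 ± 2.67. In quiescent WT astrocytes *C1qa* (23.6) and *C1qb* (21.3) led, with *C1qa* ahead in 3 of 3 libraries, and *C3* was seventh at 0.999.

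Microglia and astrocytes of WT mice were then set against each other. In quiescent cells the 5 genes *C1qa*, *C1qb*, *C1qc*, *C3ar1* and *C5ar1* were higher in microglia by 6.38 to 6.69 on the log2 scale, with *C1qa* at 6.69 (SE 0.23, limma adjusted p = 1.2e-09) and *C5ar1* at 6.60 (SE 0.18, limma adjusted p = 3.0e-10). Of the 7 members tested, these 5 were called higher and *C4b* lower, beside 22.5% of all 12064 genes tested called higher and 24.8% called lower. *C4b* passed the limit on mean reads only through astrocytes, so it could hardly have been called higher. The median log2 fold change was 6.42 over the members tested and -0.04 over all genes. Cell type, isolation, age and medium cannot be told apart in this comparison.

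The response of microglia to LPS differed from that of astrocytes to IL-1α, TNFα and C1q for 2 of the 9 members, where 6.73% of 12334 genes had a higher and 8.44% a lower response in microglia. *Cfb* responded more in microglia, by 6.41 (SE 0.41, limma adjusted p = 2.2e-08), and *C3* less, with -1.58 (SE 0.31, limma adjusted p = 8.4e-04), although it rose in both cell types. The *C3* call was lost with a pseudocount of 0.5 (adjusted p = 0.0010), without a limit on low counts (0.0012), without a trend (0.0045) and in 10 of the 12 fits that left out 1 library, all but those without replicate 3 of quiescent WT astrocytes and replicate 2 of quiescent microglia. In those 10 fits its log2 value stayed between -1.67 and -1.38. For *C1qa* the difference was -1.73 (SE 0.35, limma adjusted p = 0.0011), not called by limma and called by DESeq2 (adjusted p = 9.3e-04), by edgeR (2.7e-04) and by limma with a pseudocount of 5 (4.6e-04), with at least 10 in every library (7.2e-04) or without replicate 3 of quiescent astrocytes (-2.02, adjusted p = 1.2e-04). *C1qc* had -1.33 (limma adjusted p = 0.0052), called by DESeq2 (adjusted p = 1.8e-04) and by limma at the limit of 0.05. *Cfb* passed the limit on mean reads only through LPS microglia. Cell type and stimulus cannot be told apart here.

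Activation of WT astrocytes called 2 of 8 members tested, *C3* and *Serping1*, both higher, beside 6.0% of 12336 genes called higher and 5.54% lower. Of the same 8 members, 3 were called in *SOD1* G93A astrocytes, *C3*, *C4b* and *Serping1*, all higher, beside 6.74% of 12203 genes called higher and 6.40% lower. The median log2 fold change of the members was 0.15 in WT and -0.37 in *SOD1* G93A astrocytes, where all genes had 0.01 and -0.01. In WT microglia LPS called 4 of 7 members, *C3* and *Cfb* higher and *C1qa* and *C1qc* lower, beside 10.2% of 10866 genes called higher and 10.6% lower, with medians of -0.67 over members and 0.00 over all genes. In quiescent cells *Serping1* in astrocytes and *Cfb* in microglia were low. Both passed the limit on mean reads only through activated cells, so they could hardly have been called lower. The members were chosen with results of these data known, so these shares describe them and no more. The WT and *SOD1* G93A astrocyte activations were fitted on separate libraries.

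**Figure D3:**
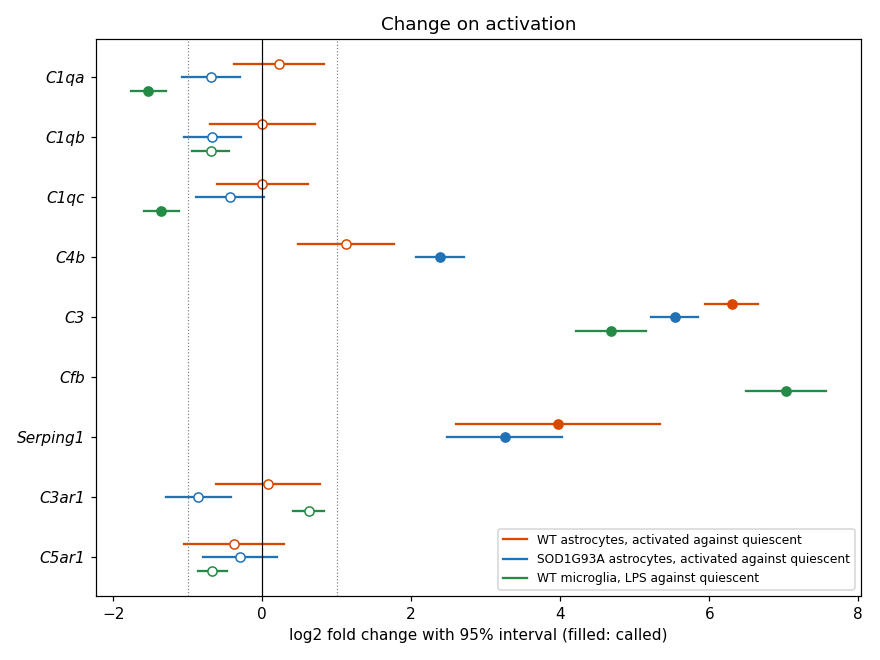
Log2 fold changes of the members tested, with 95% intervals, for activation of WT astrocytes, activation of *SOD1* G93A astrocytes and LPS in WT microglia, with filled points for genes called and dotted lines at 2-fold. *C3* lies at 6.30, 5.53 and 4.68, *Cfb* at 7.03 in microglia, and *C1qa* and *C1qc* at -1.53 and -1.35 in microglia.

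Between genotypes no member was called. In quiescent astrocytes limma called 0 of 7 members and 0% of 12271 genes, with 1068 genes at an unadjusted p under 0.05, and DESeq2 called 6 genes and edgeR 0, none of them complement genes. In activated astrocytes limma called 0 of 8 members beside 0.645% of 12098 genes, with 2464 at an unadjusted p under 0.05. This share was 78 genes, of which limma without a trend called 1 gene in all. DESeq2 and edgeR called 80 and 84 genes but 0 complement genes. In LPS microglia limma called 0 of 7 members and 0% of 10679 genes, with 930 at an unadjusted p under 0.05, and DESeq2 called 2 genes and edgeR 0, with 0 complement genes in either. Leaving out replicate 3 of the *SOD1* G93A cells also gave 0 members called. The interaction of genotype and state in astrocytes called 0 of 8 members and 0% of 12269 genes in limma, with 1018 at an unadjusted p under 0.05, and DESeq2 called 20 genes and edgeR 4, with 0 complement genes in either. The median log2 fold change of the members was 0.49 in quiescent astrocytes, -0.03 in activated astrocytes, 0.00 in LPS microglia and -0.66 for the interaction, beside medians of all genes of 0.00, 0.00, 0.01 and 0.00. An absent call does not show that the genotypes were alike at this depth.

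Of the 45 other complement genes, 10 had no read in any library and 21 had at most 3 reads in each library. The genes of the 7 terminal components, which form the membrane pore, reached at most 6 reads in a library. In WT microglia LPS called 7 of 12 others tested, 2 higher and 5 lower, where 10.2% of all genes tested were called higher and 10.6% lower. *C2*, the partner of C4 in the classical route, had 1.96 to 2.02 RPM in quiescent and 31.4 to 34.8 in WT LPS microglia, a rise of 4.14 on the log2 scale. *Cfp*, encoding properdin, which stabilises the alternative route, had 18.4 to 20.6 and 83.9 to 116, a rise of 2.48. *C5ar2*, a further C5a receptor, had 33.1 to 38.8 and 0.785 to 1.71 and fell by 4.41. Its mean normalized count after LPS was 8.29, so it passed the limit on mean reads only through quiescent cells. *Colec12*, a collectin, fell by 2.22, and *Masp1*, a protease of the lectin route, fell by 2.37, a call lost without replicate 2 of the quiescent cells (adjusted p = 0.0012).

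In *SOD1* G93A LPS microglia *C2* had 16.3 to 34.1, lowest in replicate 3, and *C5ar2* 1.73 to 3.28 RPM, and 0 of 12 others were called against WT LPS cells. Quiescent microglia against astrocytes called 12 of 12 others tested, 9 higher and 3 lower, where 22.5% of all genes tested were higher and 24.8% lower. Among the higher ones were *C5ar2* (6.22), *Itgax* (5.92), *Itgam* (5.59), *Itgb2* (5.55) and *Colec12* (5.05). Without replicate 1 of the astrocytes *C5ar2* had 5.47, still called. The mean normalized counts of *C5ar2* and *Itgax* in astrocytes were 2.53 and 3.94, so both passed the limit on mean reads only through microglia. *Itgam*, *Itgax* and *Itgb2* encode the chains of complement receptors 3 and 4, and *Itgam* encodes Cd11b, the protein by which the microglia were collected.

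Activation of astrocytes called 3 of 12 others in WT and 4 of 12 in *SOD1* G93A cells, all higher, where 6.0% and 6.74% of all genes tested were called higher. *C1ra* and *C1s1* encode the proteases that C1 inhibitor blocks. Their mean normalized counts were 3.96 and 4.84 in quiescent WT and 2.34 and 3.91 in quiescent *SOD1* G93A astrocytes. They thus passed the limit of a mean of 10 only through activated cells and could hardly have been called lower. With at least 10 in every library, all complement genes called were 2 in place of 5 in WT and 4 in place of 7 in *SOD1* G93A astrocytes. *C1ra* had 1 to 13 reads in quiescent and 56 to 64 in activated WT astrocytes, and 0 to 9 and 25 to 48 in *SOD1* G93A astrocytes, with log2 fold changes of 3.47 and 4.22, the latter 3.497 without replicate 3 of the quiescent cells, still called. *C1s1* had log2 fold changes of 2.68 and 2.45. Its WT call was lost in 4 fits that left out a library, with adjusted p of 0.0011 without replicate 2 of the quiescent cells and 0.0032, 0.0019 and 0.0025 without replicate 1, 2 or 3 of the activated cells, and its *SOD1* G93A call was lost without replicate 2 of the activated cells (0.0010). In these fits the log2 fold change stayed between 2.62 and 2.78 in WT and was 2.401 in *SOD1* G93A cells. *C1ra* and *C1rb*, and *C1s1* and *C1s2*, are near-identical copies whose reads may be divided between them. *Csmd1*, a membrane regulator, had 14.6 to 17.6 RPM in quiescent and 67.1 to 83.8 in activated WT astrocytes, and 10.5 to 11.9 and 33.7 to 59.4 in *SOD1* G93A astrocytes, with log2 fold changes of 2.26 and 2.05. *Clu*, encoding clusterin, an inhibitor of pore assembly, was called in *SOD1* G93A astrocytes only (1.05), close to the 2-fold limit. That call was lost without replicate 3 of the quiescent cells (0.87), with quantile normalization (0.96), in edgeR (0.995) and without a trend (adjusted p = 0.0025), and a difference of *Clu* between the genotypes in this response was not called.

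Genes of like pattern were ranked by Pearson r of log2(RPM + 1) over the 21 libraries, among 9906 genes outside the complement lists. The libraries share conditions, so r mainly follows the 7 condition means and is given as a description. The mean of the C1q chains was followed most closely by *Cd68* (0.997), *Fxyd5*, *Irf8*, *Plcg2* and *Csf1r* (0.996). *C3* was followed by *Cxcl1* (0.992), *Ccl2*, *Micall2*, *Lif* and *Hif1a* (0.972). *C4b* was followed by *Hbegf* (0.994), *Mgll*, *Rgs17*, *Tnc* and *Itga7* (0.985), and *Cfb* by *Jak2* (0.995), *Ccl5*, *Serpinb2*, *Csf3* and *Serp1* (0.991).

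Markers of other cells were read in the same libraries. Of the 8 markers of the oligodendrocyte lineage, *Olig1* was the most abundant in astrocytes, at 1727 to 2262 RPM in quiescent and 512 to 590 in activated cells, and *Cspg4* in quiescent microglia, at 1202 to 1247, and at 61.3 to 68.5 after LPS in WT cells. Of the 5 endothelial markers, *Flt1* made up nearly the whole sum in astrocytes, 110 to 150 of 111 to 152 RPM in activated and 4.62 to 10.4 of 5.04 to 10.7 in quiescent cells. The defining endothelial markers were near or at 0, with no *Cldn5* read in any library and at most 1 *Cdh5* read in any astrocyte library. *Map2* led the 7 neuronal markers, at 733 to 982 in quiescent and 352 to 403 in activated astrocytes, and *Acta2* led most sums of the 8 pericyte and fibroblast markers, which reached at most 84.2. The 7 markers of other macrophages summed to at most 20.8 RPM and the 3 of 4 neutrophil markers in the tables to at most 4.71, both in LPS microglia. The part of such cells in the complement values was not tested.

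RefSeq promoter entries (GRCm38.p6) were matched for 5 of the 9 members, *C1qb*, *C1qc*, *C3*, *C3ar1* and *C5ar1*. The 250 bases before the start of each were searched on both strands for 5 motifs: the NF-kB motif and the letters GAAANNGAA, TTCNNNGAA, GAGGAA and TTNNGNAA. Of 32851 promoter windows of this length, 7.25% hold the NF-kB motif, 7.13% GAAANNGAA, 7.02% TTCNNNGAA, 23.3% GAGGAA and 36.8% TTNNGNAA. *C3* and *C1qb* are shown because *C3* rose in both cell types and *C1qb* was the chain that moved least with LPS. Capitals, chosen after the search among the motifs found, mark TTNNGNAA in *C3*, chr17:57228137-57228386, minus strand, and GAGGAA in *C1qb*, chr4:136886201-136886450, minus strand, each written 5′ to 3′ in the direction of the gene.
*C3*: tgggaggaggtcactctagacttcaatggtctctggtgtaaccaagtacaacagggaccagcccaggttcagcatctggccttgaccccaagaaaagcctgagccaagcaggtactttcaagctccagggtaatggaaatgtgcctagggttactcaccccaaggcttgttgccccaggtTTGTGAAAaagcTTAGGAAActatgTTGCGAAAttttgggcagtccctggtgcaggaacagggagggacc
*C1qb*: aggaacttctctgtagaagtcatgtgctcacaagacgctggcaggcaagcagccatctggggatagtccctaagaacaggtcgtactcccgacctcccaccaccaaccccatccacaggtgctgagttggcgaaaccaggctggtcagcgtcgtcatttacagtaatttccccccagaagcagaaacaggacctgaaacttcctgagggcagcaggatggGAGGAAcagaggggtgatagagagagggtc
In *C3* the letters TTNNGNAA occur at 3 places, starting 70, 58 and 45 bases before the start, of which the last reads the same motif on both strands, and none of the other 4 motifs occurs. In *C1qb* GAGGAA occurs once and the other 4 do not. *C1qc* holds 1 NF-kB motif, 1 GAGGAA and 1 TTNNGNAA, *C5ar1* holds 1 GAAANNGAA and 1 TTNNGNAA, and *C3ar1* holds none of the 5. No matches of different motifs overlap, and a match describes letters, not a bound site.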

How the data were processed

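Bulk RNA-seq values of 21 libraries, 3 in each of 7 conditions, were used, with groups taken from the sample labels. Per the submitters' processing notes the authors used the mouse build mm10, STAR, RSEM and DESeq2; no versions are given there. The authors deposited 6 tables, each with a normalized count per gene and library, a signal equal to the read count divided by the library's size factor within that table. The deposited columns with the authors' own comparisons (log2 fold changes, their errors and p-values) were not used. Dividing each library's values by their smallest step gave whole reads for 100% of values (tolerance 0.05), and libraries held in several tables gave identical reads in all of them.

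The main test was limma 3.58.1 in R 4.3.3, with a trend on intensity, applied to log2(normalized count + 1) of genes with a mean of at least 10 over the libraries fitted, with Benjamini-Hochberg adjustment over all genes tested. Genes were called at an adjusted p under 0.001 and more than 2-fold. The activation of *SOD1* G93A astrocytes, quiescent microglia against astrocytes and both interactions had no shared deposited table and used the recovered reads with median-of-ratios size factors; the other comparisons stayed within their tables. As alternatives, the recovered reads were tested with DESeq2 1.42.0 and with the quasi-likelihood test of edgeR 4.0.16. Further alternatives were pseudocounts of 0.5 and 5, dropping the filter, requiring at least 10 in every library, TMM scaling, quantile normalization, limma without a trend, an adjusted p under 0.05, a block on the replicate number, and fits without each single library. Scripts were tested on simulated data. Ratios within libraries were compared by exact permutation tests, two-sided.

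The members and lists were chosen with earlier results of these data known. The 9 members were named throughout, with at most the 6 largest changes among other complement genes called, the 5 genes nearest in pattern, and each marker list's defining and most abundant genes. Of the wider complement list, 1 gene is counted but not reported here. Fits of other called complement genes under the alternatives were added after seeing the data. Levels are RPM, reads per 1000000 reads on genes, divided where stated by kilobases of exon in the GENCODE annotation of GRCm38; the annotation that the authors counted on is not given in the sources used here. Depth limits genes with few reads: at 3 reads or fewer in every library of a group only a lower bound of a fold change holds. Counting errors cover counting only. Promoter sequences are from RefSeq (GRCm38.p6).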

Additional observations from a re-analysis of the deposited data

Results flagged for a closer look

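For the 6 complement genes given here the response of WT microglia to LPS differed from that of WT astrocytes to the mixture with IL-1α in the limma test of the difference itself over 12 libraries. Positive log2 values mean a larger rise, or a smaller fall, in microglia. *Cfb* had 6.41 and *C2* 4.38. *C2* had at most 3 reads in each activated astrocyte library. Its mean normalized counts were 2.38 in quiescent and 1.91 in activated WT astrocytes, so it passed the limit on mean reads only through microglia. The astrocyte part of the *C2* value thus rests on too few reads to measure a response. *Cfp* had 1.88. *C3* had -1.58, with a rise in both cell types and a call that 10 of 12 fits without 1 library lost. *C5ar2* had -4.39 and *Colec12* -2.13, both falling in microglia. In astrocytes *Colec12* was not called. *C5ar2* had too few reads to be tested there, with mean normalized counts of 2.72 in quiescent and 1.95 in activated WT cells. The *C5ar2* call was lost with a pseudocount of 0.5 (adjusted p = 0.0021), in edgeR (0.0013), without a trend (0.0013) and in 6 fits without 1 library. Its value was -3.61 without replicate 1 of the quiescent WT astrocytes, which kept the call, and the gene had 0 to 10 reads in the WT astrocyte libraries. Cell type and stimulus cannot be told apart.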

How the results depend on the processing

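The 69 results of single members were fitted under 1267 alternatives, of which 1177 kept direction and side of the limits, 19 lost and 19 gained a call and 52 changed sign, none of them a called value. Numbers of genes called moved in quiescent astrocytes between genotypes from 0 to 6 with DESeq2 and 4 at an adjusted p under 0.05; in activated astrocytes between genotypes from 78 to 1 without a trend and 123 at an adjusted p under 0.05; in LPS microglia between genotypes from 0 to 2 with DESeq2 and 1 at an adjusted p under 0.05. In the interaction of genotype and state they moved from 0 to 3 (pseudocount 5), 20 (DESeq2), 4 (edgeR) and 28 (adjusted p under 0.05), and between 0 and 6 without 1 library. The difference of responses between cell types had 2855 genes and 12 complement genes at an adjusted p under 0.05. With at least 10 in every library, fewer genes were tested, and complement genes called were 2 in WT and 4 in *SOD1* G93A astrocyte activation and 4 in the difference of responses. Without 1 library, 3 to 6 complement genes were called in WT astrocyte activation.

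Signs that turned, all of uncalled values, were as follows, and the cause was not tested. In WT astrocyte activation *C1qb* had -0.000351 (pseudocount 5), -0.00581 (quantile), -0.0171 (DESeq2) and -0.0936 (edgeR), *C1qc* had -0.0149, -0.0250 and -0.0582 (quantile, DESeq2, edgeR) and *C3ar1* -0.0348 (edgeR). Between genotypes *C1qc* had -0.00190 (DESeq2) and -0.0269 (edgeR) in activated astrocytes and 0.0238 (quantile) in LPS microglia, where *C3ar1* had 0.00202 (TMM), 0.00705 (DESeq2) and 0.00833 (edgeR). In the difference of responses *C4b* had -0.402 (pseudocount 5), -0.0722 (DESeq2) and -0.0771 (edgeR). In the interaction *C5ar1* had -0.0216 and -0.0830 and *Serping1* 0.254 and 0.317 (DESeq2, edgeR).

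Without 1 library, values in WT astrocyte activation ran from -0.0701 to 0.502 for *C1qa*, -0.332 to 0.290 for *C1qb*, -0.284 to 0.229 for *C1qc* and -0.288 to 0.327 for *C3ar1*. Between activated genotypes they ran from -0.285 to 0.219 for *C1qb*, -0.117 to 0.347 for *C1qc* and -0.0840 to 0.257 for *Serping1*. In LPS microglia they ran from -0.0638 to 0.131 for *C1qa*, -0.201 to 0.0211 for *C1qb*, -0.0876 to 0.0659 for *C1qc* and -0.0773 to 0.133 for *C3ar1*. In the difference of responses *C4b* ran from -0.347 to 1.05 and *C5ar1* from -0.560 to 0.0108, and in the interaction *C5ar1* from -0.207 to 0.359 and *Serping1* from -1.30 to 0.109.

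Samples of the same number did not deviate together: correlations of their deviations ran from -0.436 to 0.0587, and 5 of 21 pairs were closest to their own number, so the numbers were not taken as pairs. Libraries of different numbers did so in places. Between the genotypes of quiescent astrocytes the best correlation with another number was 0.522 for replicate 3 and 0.351 for replicate 1. With the replicate block 0, 1423, 2201, 100, 0, 1584, 5768, 1854 and 0 genes were called, in the order quiescent astrocyte genotypes, WT astrocyte activation, LPS in microglia, activated astrocyte genotypes, LPS microglia genotypes, *SOD1* G93A astrocyte activation, cell types, difference of responses and interaction. Of the members the block changed only *C3* between quiescent cell types, to a call (adjusted p = 5.1e-04).

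Depth limits *Cfb*, *C4b* and *Serping1* where they have few reads, and *C1q* in the shallow astrocyte libraries. With 3 libraries a condition, 1 library can decide a call, as for *C4b*, *Serping1* and *C3ar1*. TMM and quantile scaling kept the median of all genes within 0.1 of 0 on the log2 scale in each comparison, whereas RPM shifts levels by -0.58 between cell types.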
